A study of Mus musculus with 36 samples.

Results

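Neurexins, neuroligins and LAR-type receptor phosphatases are cell-surface proteins that hold the cells of a synapse together. Their mRNA was followed here in cells sorted from mouse skeletal muscle. The 8 members, picked by name among the 52636 genes of the count table, were the neurexins Nrxn2 and Nrxn3, the neuroligins Nlgn1, Nlgn2 and Nlgn3, and the LAR-type phosphatases Ptprd, Ptprf and Ptprs. Each symbol matched 1 row of the table by its Ensembl identifier.

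The study asked how perisynaptic Schwann cells (PSCs), the glia that cover the neuromuscular junction, differ from other cells of muscle. All mice carried both the S100β-GFP transgene, in which the S100b promoter drives GFP, and the NG2-dsRed transgene, in which the promoter of Cspg4 (the gene of NG2) drives dsRed, and none was given a treatment. Cells positive for both colours (NG2DsRed+/S100GFP+ in the labels, PSCs here), for GFP alone (S100β-GFP+) or for dsRed alone (NG2-dsRed+) were sorted from diaphragm, pectoralis, forelimb and hindlimb muscle of juvenile mice. The labels give ages from day 15 after birth, with a last day that runs from 21 to 46 with library number. The methods give a single span, from day 15 to day 21, so the later days are uncertain and no result here uses age. The table held 9 PSC, 8 S100β-GFP+ and 10 NG2-dsRed+ libraries with 5221655 to 9592875 counts each. The study describes fewer S100β-GFP+ replicates than the table has columns, so a library left out by the authors may be among those used here. Each cell type is defined by promoter activity in these 2 transgenes, and a library is the cells of 1 mouse.

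Neurexins sit mainly on the presynaptic membrane and bind neuroligins, LRRTM proteins, latrophilins, dystroglycan and secreted linkers such as C1q-like proteins. Neuroligins are known mainly as postsynaptic partners, with NLGN1 at excitatory synapses, NLGN2 at inhibitory synapses and NLGN3 at both, and glia also make neuroligins that contact the processes of neurons. LAR-type phosphatases pair immunoglobulin and fibronectin domains outside the cell with tyrosine phosphatase domains inside, and bind SLITRK proteins, IL1RAPL1, IL1RAP and heparan sulfate proteoglycans. Neurexins and neuroligins end in motifs that bind scaffolds such as CASK and the DLG family.

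The promoters of the members differed in base composition, and a short motif for SOX factors, the family of the Schwann cell regulator SOX10, was in 2 of 9 entries, a share near that of all promoters. RefSeq promoter entries on GRCm38.p6, running from 250 bases before to 50 bases after a transcript start, were at hand for 5 of the 8 members, with 9 entries in all, and none for Nrxn2, Nlgn3 or Ptprd. The letters ACAAAG, searched on both strands and so also as CTTTGT, occurred in 1 of 3 Nrxn3 entries and in 1 of 2 Nlgn1 entries, and in none of Nlgn2, Ptprf and Ptprs. Of 32851 promoters of the same length, 18.7% held these letters. A second SOX motif, ACAATG or CATTGT, was in no member entry and in 12.6% of all promoters, and 28.6% of them held either motif. Read on both strands, these 4 strings cannot overlap each other. The 250 bases before the start are shown for the 2 entries with the motif, in capitals, and for Nlgn2, the neuroligin with the smallest differences between cell types below.
Nrxn3, chr12:88794254-88794503, plus strand: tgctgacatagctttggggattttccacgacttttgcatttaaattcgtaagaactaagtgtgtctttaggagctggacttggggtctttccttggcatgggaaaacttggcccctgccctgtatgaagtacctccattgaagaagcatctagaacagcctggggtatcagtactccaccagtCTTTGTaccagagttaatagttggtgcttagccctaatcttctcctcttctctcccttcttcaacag
Nlgn1, chr3:26153987-26154236, minus strand: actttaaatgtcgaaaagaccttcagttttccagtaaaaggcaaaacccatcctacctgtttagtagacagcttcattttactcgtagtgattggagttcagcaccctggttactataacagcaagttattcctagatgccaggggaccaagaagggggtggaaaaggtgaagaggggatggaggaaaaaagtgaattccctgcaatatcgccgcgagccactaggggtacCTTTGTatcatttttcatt
Nlgn2, chr11:69837785-69838034, minus strand: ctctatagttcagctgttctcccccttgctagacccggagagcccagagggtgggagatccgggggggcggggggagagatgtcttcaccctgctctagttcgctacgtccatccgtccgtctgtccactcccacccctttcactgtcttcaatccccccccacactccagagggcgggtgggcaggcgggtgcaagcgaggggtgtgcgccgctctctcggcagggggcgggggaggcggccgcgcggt
The motif began 67 bases before the start in Nrxn3 and 19 bases before it in Nlgn1. The Nlgn2 stretch had 67.6% G and C and 18 CpG pairs, against 45.6% and 2 for this Nrxn3 entry and 43.6% and 5 for this Nlgn1 entry. The entries of these genes without the motif were richer in G and C and in CpG pairs. The other Nlgn1 entry had 53.6% and 9 CpG pairs, and the other Nrxn3 entries had 5 and 12 CpG pairs. The stretches were picked by motif and by level, so these values describe single entries and not the genes. A match of letters is a description of the sequence, and binding was not measured.

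The sorted cells were checked first against marker genes, because several members moved with them. PSC libraries held the Schwann cell lineage genes strongly, with Sox10 at 506 ± 103 counts per 1000000 (CPM, scaled by trimmed mean of M values; mean ± SD, n = 9). S100β-GFP+ libraries had far less Sox10, at 20.2 ± 12.0 CPM (n = 8), and less S100b itself, at 29.4 ± 10.1 against 255 ± 198 CPM in PSCs. The 6 fibroblast markers summed to between 18323 and 41846 CPM in S100β-GFP+ libraries, to between 2236 and 19175 CPM in NG2-dsRed+ libraries and to between 703 and 2873 CPM in PSC libraries. In the same order, the 5 endothelial markers summed to 25.1 to 2004, 1156 to 2717 and 76.0 to 509 CPM. The 6 macrophage and leukocyte markers summed to 1090 to 10354, 12.8 to 67.6 and 34.3 to 570.1 CPM. The 9 pericyte and smooth muscle markers summed to between 7274 and 15774 CPM in NG2-dsRed+ libraries. In PSCs they summed to between 790.0 and 1468 CPM, and in S100β-GFP+ libraries to between 242 and 1647 CPM. Cspg4 is on this list, and its promoter drives the dsRed by which cells were sorted. Its mean was 689 ± 132 CPM in PSCs, 71.0 ± 42.3 CPM in S100β-GFP+ and 665 ± 138 CPM in NG2-dsRed+ libraries. Of 8 Schwann cell lineage markers tested, 6 were called lower in S100β-GFP+ than in PSC libraries, and 6 were called higher than in NG2-dsRed+ libraries. Markers of neurons and axons summed to only 7.00 to 29.4 CPM in PSCs, 12.7 to 38.8 CPM in S100β-GFP+ and 28.4 to 53.5 CPM in NG2-dsRed+ libraries, and 4 of the 12 markers passed the filter. Chat, the acetylcholine-synthesising enzyme of motor neurons, was at 0 in all PSC and all NG2-dsRed+ libraries, whereas Syp, which encodes the synaptic vesicle protein synaptophysin, was higher in PSCs, at 6.88 ± 6.48 CPM against 1.81 ± 1.23 and 2.70 ± 1.63 CPM (edgeR adjusted p = 0.00190 and 0.0139). Each of the other markers of neurons and axons had a lower mean in PSCs than in S100β-GFP+ libraries, as with Nefm, at 0.214 ± 0.346 against 5.71 ± 4.03 CPM. Stmn2 alone had 34.5 ± 8.45 CPM in NG2-dsRed+ libraries, where the whole list summed to 40.1 CPM on average. In bulk samples, fewer cells of a type and less RNA per cell cannot be told apart.

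Nrxn2 (ENSMUSG00000033768, chr19:6418731-6544169, plus strand, GRCm38) was listed at 0 counts in all 27 libraries. The same was true of every protein-coding gene in a run of 9 neighbours, from Ehd1 through Cdc42bpg, Men1, Map4k2, Sf1, Pygm, Rasgrp2 and Nrxn2 to Slc22a12 (chr19:6276725-6544169). Sf1, a splicing factor that cells use broadly, and Men1, which encodes the widely expressed protein menin, lie in that run. Beyond it, Atg2a had 1 count and Ppp2r5b had 3 counts in all libraries together, while Batf2 and Arl2 on one side had 461 and 3762 counts and Rps6ka4 on the other had 6105. The zero of Nrxn2 therefore stands with those of its whole neighbourhood, and no level, fold or limit is given for it. What set the run to 0 was not tested.

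**Figure D1:**
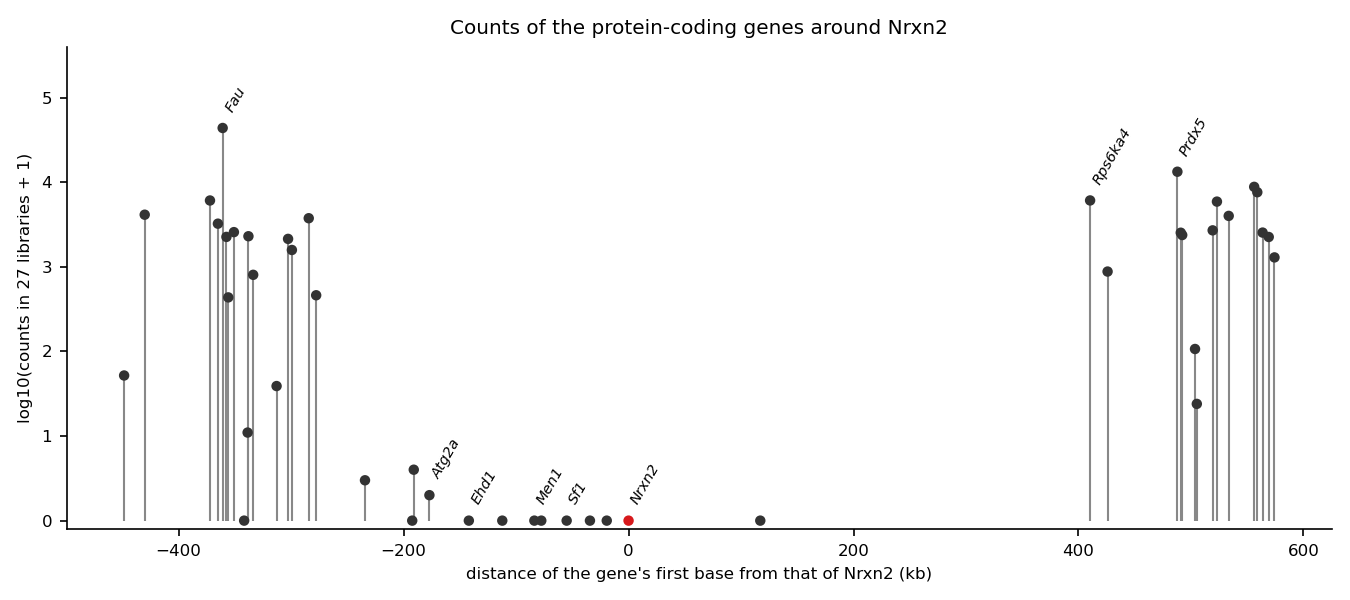
Each point is a protein-coding gene near Nrxn2, placed by the distance in kilobases of its first base from that of Nrxn2 (x axis) and by the log10 of its counts in all 27 libraries plus 1 (y axis, a log scale). Nrxn2, in red, lies within a run of 9 genes at 0, and Batf2 (461 counts) and Rps6ka4 (6105 counts) lie beyond it on either side.

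The other neurexin, Nrxn3 (ENSMUSG00000066392, chr12:88722876-90334935, plus strand), was high in PSCs. Its lowest, median and highest PSC library had 10.3, 24.9 and 40.4 CPM. In S100β-GFP+ libraries these values were 0.138, 1.20 and 5.43 CPM, and in NG2-dsRed+ libraries 0, 0.634 and 2.59 CPM. All 9 PSC libraries lay above all 18 others, so the groups did not overlap. The mean was 25.3 ± 8.49 CPM in PSCs, against 2.17 ± 2.28 and 0.690 ± 0.728 CPM. Nrxn3 exceeded its level in S100β-GFP+ cells 11.9-fold in PSCs (log2 fold change 3.58 ± 0.58 SE, edgeR adjusted p = 7.50e-06) and that in NG2-dsRed+ cells 36.2-fold (5.18 ± 0.58, edgeR adjusted p = 2.11e-08). Between S100β-GFP+ and NG2-dsRed+ cells the log2 difference was 1.60 ± 0.60 (edgeR adjusted p = 0.0388), and it rested on few libraries. S100β-GFP+ libraries 17, 22 and 27 had 5.20, 5.43 and 3.83 CPM of Nrxn3, and the other 5 had at most 1.33 CPM. Libraries 22, 17 and 14 also held counts on 1047, 686 and 412 of 1106 olfactory receptor genes, more than any other library, for which the highest number was 187. Their endothelial markers summed to 1084, 2004 and 543 CPM, where the other 5 S100β-GFP+ libraries had at most 100.4 CPM, and the part of these in the result was not tested. Without libraries 14, 17 and 22 the difference was 0.61 with an adjusted p of 0.531.

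The neuroligins were a member far higher in PSCs (Nlgn3), a scarce member with the same direction (Nlgn1), and a member present in every cell type (Nlgn2). Nlgn3 (ENSMUSG00000031302, chrX:101299168-101325963, plus strand) had 10.3, 59.6 and 80.2 CPM in the lowest, median and highest PSC library. Its range was 0.353 to 2.76 CPM in S100β-GFP+ libraries and 0.260 to 2.40 CPM in NG2-dsRed+ libraries, with medians of 1.34 and 1.17 CPM. The PSC range did not meet either of the others. Nlgn3 rose 39.1-fold over S100β-GFP+ cells (log2 fold change 5.29 ± 0.42 SE, edgeR adjusted p = 1.56e-11) and 43.3-fold over NG2-dsRed+ cells (5.44 ± 0.38, edgeR adjusted p = 1.52e-12). S100β-GFP+ and NG2-dsRed+ cells differed by 0.15 ± 0.41 on the log2 scale (95% interval -0.65 to 0.95, edgeR adjusted p = 0.820). Of its 9271 exon bases, 3823 are shared on the same strand with Gm21986, a transcript with 113 counts in all libraries together, where reads can be split or dropped in counting.

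Nlgn1 (ENSMUSG00000063887, chr3:25426215-26332460, minus strand) was scarce in all cell types. PSC libraries had 1.23, 9.23 and 12.9 CPM at the lowest, median and highest, and library 31, with 3.86 CPM, was the only other one below 8. S100β-GFP+ libraries ranged from 0.353 to 3.13 CPM with a median of 1.05 CPM, and 6 of 10 NG2-dsRed+ libraries were at 0, with a highest value of 0.426 CPM. PSCs thus overlapped S100β-GFP+ cells by library 18 alone and did not overlap NG2-dsRed+ cells. The log2 fold change of PSCs was 2.73 ± 0.49 against S100β-GFP+ cells (6.63-fold, edgeR adjusted p = 3.26e-05) and 6.16 ± 0.58 against NG2-dsRed+ cells (edgeR adjusted p = 5.41e-10). Nlgn1 was also higher in S100β-GFP+ than in NG2-dsRed+ cells, by 3.43 ± 0.60 (edgeR adjusted p = 3.62e-05), with only 7 counts over all 10 NG2-dsRed+ libraries behind the lower value. Antisense A830092H15Rik, with 4 counts, covers 9.16% of the exon bases of Nlgn1, and the strand setting of the counting is not known.

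Nlgn2 (ENSMUSG00000051790, chr11:69823122-69837784, minus strand) had levels in the 3 cell types that lay near each other. Its lowest, median and highest values were 17.4, 27.2 and 91.6 CPM in PSCs, 7.00, 17.3 and 30.2 CPM in S100β-GFP+ cells and 16.6, 23.5 and 32.2 CPM in NG2-dsRed+ cells. The 3 ranges overlapped, and 4 of 9 PSC libraries lay above all others. Nlgn2 was 2.00-fold higher than in S100β-GFP+ cells (log2 fold change 1.00 ± 0.30 SE, edgeR adjusted p = 0.00675). Against NG2-dsRed+ cells the difference was 0.61 ± 0.28 (95% interval 0.07 to 1.15) and missed the threshold (edgeR adjusted p = 0.0744). It was 0.07 in limma-voom with library weights, and 0.94 with the share of counts on 3 abundant genes as a term (adjusted p = 0.000292). S100β-GFP+ and NG2-dsRed+ cells differed by -0.39 ± 0.29 (edgeR adjusted p = 0.330).

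PSC library 18 stood apart within the neuroligins. It had the most Nlgn2 of all libraries, 91.6 CPM where the other 8 PSC libraries had 17.4 to 53.7 CPM, and the least Nlgn3, Nlgn1 and Nrxn3 of the PSC libraries. Its Sox10 level, 703 CPM, was the highest of the 9 PSC libraries. Its summed markers of macrophages (570.1 CPM), satellite cells and muscle fibres (1005 CPM) and pericytes (1468 CPM) were also the highest of the 9, as was that of neurons and axons (29.4 CPM), while its endothelial markers (76.0 CPM) were the lowest and its fibroblast markers (754 CPM) were lower in library 20 alone (703 CPM). The pericyte sum includes Cspg4, whose promoter drives the dsRed used for sorting. The part of cells with these markers in the result was not tested. Without library 18 the log2 fold change of Nlgn2 was 0.74 against S100β-GFP+ cells (edgeR adjusted p = 0.0147) and 0.38 against NG2-dsRed+ cells (edgeR adjusted p = 0.182).

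**Figure D2:**
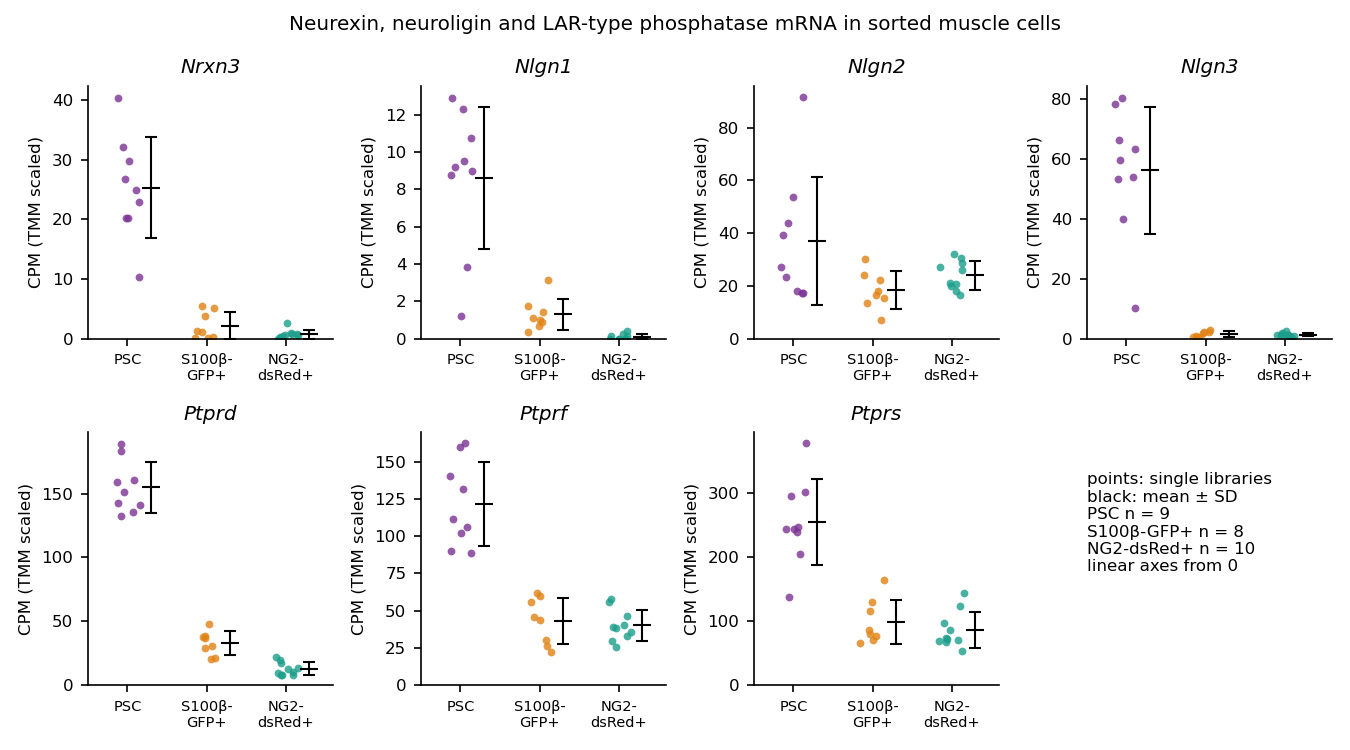
CPM of 7 members (y axes, linear from 0) in single PSC (purple, n = 9), S100β-GFP+ (orange, n = 8) and NG2-dsRed+ libraries (green, n = 10), with mean ± SD in black. PSC libraries lie above all others for Nrxn3, Nlgn3, Ptprd and Ptprf, and Nlgn2 overlaps in all 3 cell types with library 18 at 91.6 CPM.

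All 3 LAR-type phosphatases were higher in PSCs than in either other cell type. Ptprd, the receptor PTPδ (ENSMUSG00000028399, chr4:75941238-78211961, minus strand), had 133, 151 and 189 CPM at the lowest, median and highest in PSCs. It had 20.7, 33.6 and 47.6 CPM in S100β-GFP+ cells and 7.94, 11.5 and 22.0 CPM in NG2-dsRed+ cells. PSC libraries were clear of both other groups, which overlapped each other slightly. Ptprd exceeded its level in S100β-GFP+ cells 4.72-fold in PSCs (log2 fold change 2.24 ± 0.21 SE, edgeR adjusted p = 3.72e-10) and that in NG2-dsRed+ cells 12.0-fold (3.59 ± 0.20, edgeR adjusted p = 1.62e-14). It also differed between these, by 1.35 ± 0.20 in favour of S100β-GFP+ cells (edgeR adjusted p = 2.55e-06).

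Ptprf, which encodes LAR itself (ENSMUSG00000033295, chr4:118208213-118291405, minus strand), had 89.0, 112 and 163 CPM in PSCs. The corresponding values were 22.5, 44.5 and 61.9 CPM in S100β-GFP+ cells and 25.3, 38.5 and 58.0 CPM in NG2-dsRed+ cells. PSC libraries again lay above all others. The differences were 1.49 ± 0.21 (2.81-fold, edgeR adjusted p = 6.86e-07) and 1.60 ± 0.19 (3.03-fold, edgeR adjusted p = 7.37e-08). S100β-GFP+ and NG2-dsRed+ cells differed by 0.11 ± 0.20 (95% interval -0.28 to 0.50, edgeR adjusted p = 0.723).

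Ptprs, the receptor PTPσ, which binds chondroitin and heparan sulfate proteoglycans (ENSMUSG00000013236, chr17:56412426-56476483, minus strand), had the most counts of the members. It had 138, 243 and 378 CPM in PSCs, 64.8, 82.8 and 164 CPM in S100β-GFP+ cells and 53.1, 72.7 and 143 CPM in NG2-dsRed+ cells. PSC library 18, with 138 CPM, was the only PSC library within the range of the others. PSCs had 2.59-fold more than S100β-GFP+ cells (log2 fold change 1.37 ± 0.22, edgeR adjusted p = 5.14e-06) and 2.97-fold more than NG2-dsRed+ cells (1.57 ± 0.20, edgeR adjusted p = 2.23e-07). The difference between S100β-GFP+ and NG2-dsRed+ cells was 0.20 ± 0.21 (95% interval -0.20 to 0.60, edgeR adjusted p = 0.507).

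Counted together, 7 of the 8 members passed the filter on low counts, and all of these 7 were called against S100β-GFP+ cells, all of them higher in PSCs, where 47.0% of the 15330 genes tested were called and 22.9% were higher. Against NG2-dsRed+ cells 6 of 7 were called, all higher, with 44.0% of all genes called and 20.9% higher, and against both cell types 6 of 7, with 13.9% of all genes. The median log2 fold change of the 7 was 2.24 and 3.59 in these comparisons, beside 0.04 and 0.02 over all genes. All PSC libraries lay above all other libraries for 4 of 7 members and for 3.24% of all genes. Between S100β-GFP+ and NG2-dsRed+ cells 3 of 7 were called, all higher in S100β-GFP+ cells, where 33.3% of all genes were called and 18.1% were higher, with a median of 0.20 beside -0.02. Nrxn3, Nlgn1 and Nlgn3 entered this last comparison only with the PSC libraries in the filter. A fit of these 2 cell types alone tested 4 members and called 1. A gene that passes the filter through the cell type in which it is high had more room to differ. The comparisons share the PSC libraries.

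**Figure D3:**
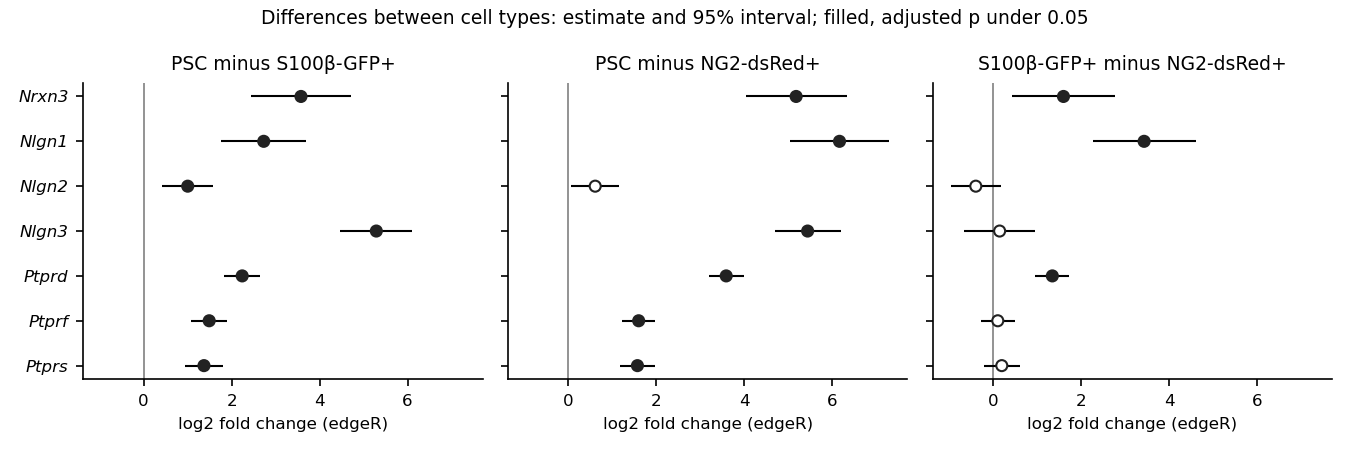
Log2 fold changes of 7 members (x axes) in the 3 comparisons, from edgeR, with 95% intervals as bars and filled points where the adjusted p was under 0.05. All 7 are filled for PSCs against S100β-GFP+ cells, 6 against NG2-dsRed+ cells (Nlgn2 is open, at 0.61), and 3 for S100β-GFP+ against NG2-dsRed+ cells.

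Because S100β-GFP+ libraries held so little Sox10, counts of each member were also set against Sox10 counts in the same library, as a description chosen after the data were seen. Per 100 counts of Sox10, the median of Nlgn3 was 11.8 in PSCs and 6.82 in S100β-GFP+ libraries, with ranges of 1.47 to 21.2 and 1.83 to 15.6 that overlapped. For all other members the median was higher in S100β-GFP+ libraries, from 5.50 against 8.53 for Nrxn3 and 1.81 against 5.25 for Nlgn1 to 53.8 against 458 for Ptprs. The ranges of Nrxn3 overlapped as well, with 1.47 to 8.15 in PSCs. Its ratio was 13.6, 20.2, 29.7 and 68.8 in S100β-GFP+ libraries 14, 17, 22 and 27, and 0.417 to 3.43 in the others of that cell type. The S100β-GFP+ ratios rest on 32 to 240 counts of Sox10 per library, where PSC libraries had 3161 to 5674. Sox10 itself had a mean of 506 CPM in PSCs and 20.2 CPM in S100β-GFP+ libraries. By arithmetic, a member that differs less than Sox10 does takes the opposite order on this scale. The order of the cell types thus depended on the scale: in CPM 7 of 7 members were higher in PSCs, and per Sox10 count, by the median, Nlgn3 was and the other 6 were not. The part of other cell types in the S100β-GFP+ levels was not tested.

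The make-up of the neuroligin family differed between cell types. Counts were divided by exon length, and each paralog was expressed as a share of its family in each library. Nlgn2 made up 92.3 ± 3.59% of neuroligin mRNA in S100β-GFP+ cells (n = 8) and 96.5 ± 1.62% in NG2-dsRed+ cells (n = 10), with lowest values of 87.9% and 93.3%. In PSCs it made up 46.1 ± 21.6% (n = 9), and Nlgn3 took 48.6 ± 19.9% against 4.60 ± 2.68% and 3.32 ± 1.50%. The Nlgn3 share of PSCs exceeded that of S100β-GFP+ cells by 44.0 percentage points (exact two-sided permutation test, p = 0.000247, adjusted p = 0.000635 over 18 tests) and that of NG2-dsRed+ cells by 45.3 points (exact permutation p = 2.17e-05, the smallest this design allows, adjusted p = 0.000130). Among PSC libraries the share of Nlgn3 ran from 40.6% to 69.7%, except for library 18, at 6.54%. S100β-GFP+ libraries held fibroblast markers at 18323 to 41846 CPM, and the part of other cell types in their family shares was not tested. Nlgn1 was a minor part everywhere, with 5.26 ± 2.63%, 3.09 ± 1.77% and 0.175 ± 0.283%. Its share in PSCs and S100β-GFP+ cells differed by 2.17 points, which was not past the threshold (exact permutation test, adjusted p = 0.113) until library 18 was left out (2.76 points, exact permutation test, adjusted p = 0.0224).

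Within the LAR-type phosphatases the share that differed past the threshold was that of Ptprd. Ptprd rose from 5.34 ± 1.96% of the family in NG2-dsRed+ cells and 11.6 ± 3.57% in S100β-GFP+ cells to 18.5 ± 2.79% in PSCs, and all 3 pairs of cell types differed (exact permutation tests, adjusted p = 0.00230 for PSCs against S100β-GFP+ cells, 0.000130 for PSCs against NG2-dsRed+ cells and 0.000411 for the other pair). Ptprf held 36.0 ± 7.87%, 37.3 ± 10.7% and 41.6 ± 9.83% in PSC, S100β-GFP+ and NG2-dsRed+ libraries, and Ptprs 45.5 ± 8.55%, 51.2 ± 9.79% and 53.1 ± 10.5%. None of the 6 tests of these paralogs passed the threshold, and the largest difference was -7.62 points for Ptprs between PSCs and NG2-dsRed+ cells (exact permutation test, adjusted p = 0.158), which was -13.6 points (adjusted p = 0.00772) in shares of counts not divided by length. Of the 18 tests of shares, 10 passed.

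**Figure D4:**
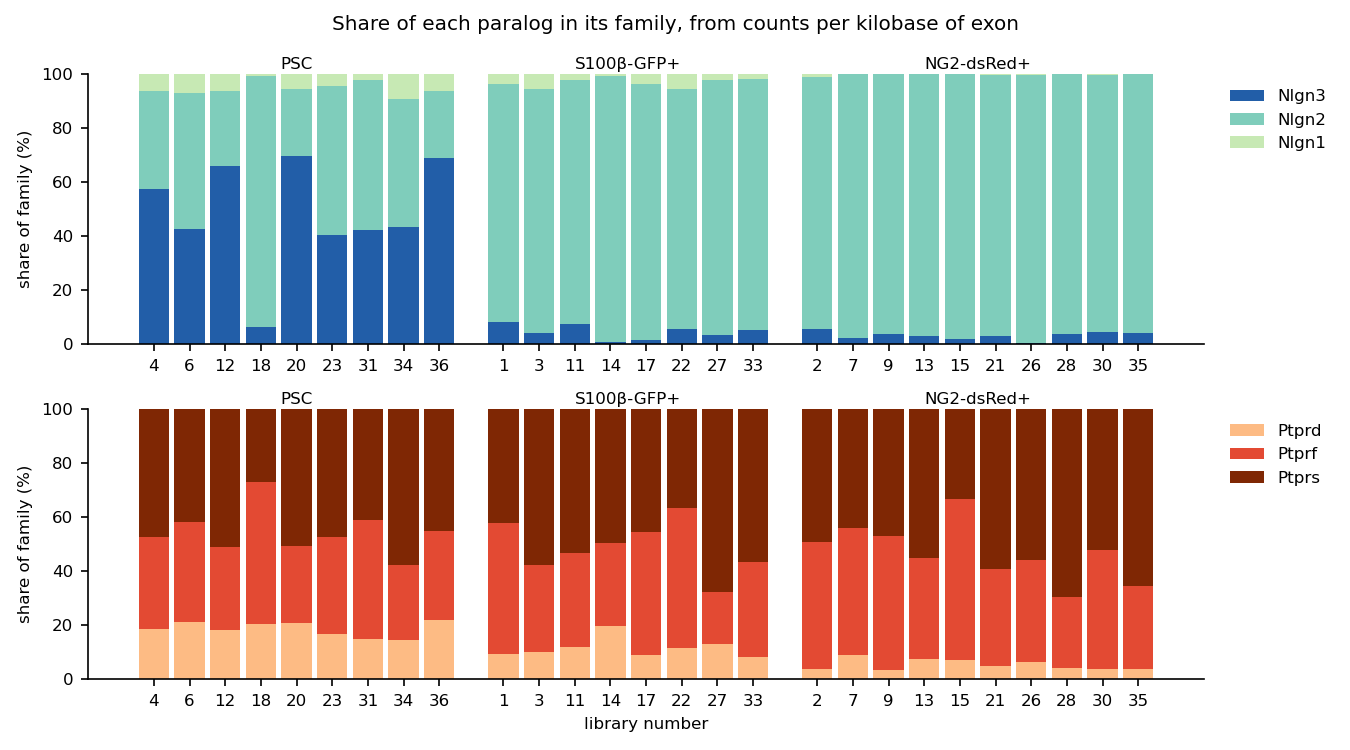
Share of each paralog in its family (y axis, percent of counts per kilobase of exon) for single libraries (x axis, library numbers) of the 3 cell types, with neuroligins above and LAR-type phosphatases below. Nlgn3 fills 40.6% to 69.7% of the bar in PSC libraries other than 18, and at most 8.41% in the S100β-GFP+ and NG2-dsRed+ libraries.

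On a scale that allows genes to be compared, CPM per kilobase of exon, the order in PSCs was Ptprs (17.0 ± 4.45), Ptprf (13.3 ± 3.10), Ptprd (6.79 ± 0.879), Nlgn2 (6.37 ± 4.20), Nlgn3 (6.05 ± 2.29), Nrxn3 (2.01 ± 0.674) and Nlgn1 (0.642 ± 0.283). With all counts of Nlgn3 divided by only the exon bases that it does not share with Gm21986, its level was 10.3 ± 3.89 and it came after Ptprf. Reads were not recounted over those bases, so this value assumes that no counted read came from the shared ones. Neighbours in that order were set apart by exact paired permutation tests within libraries, adjusted over 18 tests. Ptprf and Ptprd, Nlgn3 and Nrxn3, and Nrxn3 and Nlgn1 differed in all 9 PSC libraries (exact test, adjusted p = 0.0117 each), while Ptprs and Ptprf (adjusted p = 0.170), Ptprd and Nlgn2 (0.852) and Nlgn2 and Nlgn3 (0.910) did not pass the threshold in these exact tests. In S100β-GFP+ and NG2-dsRed+ cells Ptprs, Ptprf and Nlgn2 led, with Nlgn2 above Ptprd in 8 of 8 and 10 of 10 libraries (exact test, adjusted p = 0.0176 and 0.0117). Nlgn3 was near the bottom in both, at 0.152 ± 0.104 and 0.138 ± 0.0650.

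PSC libraries also varied among themselves in the share of all counts that fell on Lars2, Gm23935 and Gm15564, from 3.64% to 36.6%. Over the 9 PSC libraries Nlgn2 rose with this share (Pearson's r = 0.857, permutation p = 0.00459, adjusted p = 0.0161 over 7 members; Spearman's rho = 0.850, permutation p = 0.00607, adjusted p = 0.0289), and r was 0.823 without libraries 23 and 36, which were farthest from the median share. Ptprf did so too (r = 0.898, permutation p = 0.00339, adjusted p = 0.0161; rho = 0.833, permutation p = 0.00827, adjusted p = 0.0289), with r = 0.897 without these libraries. The other 5 members had r between -0.55 and 0.20, none past the threshold. The share was 19.5% to 39.1% in S100β-GFP+ and 12.5% to 40.0% in NG2-dsRed+ libraries, and its part in the differences between cell types was otherwise not tested beyond the fit that takes it as a term.

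Genes whose levels followed a member most closely over the 27 libraries were picked by Pearson's r of log2 CPM, as a description. Because the libraries share 3 cell types, these values mostly carry the differences between cell types. Nlgn3 went with Tns3 (r = 0.969), Ptprz1 (0.965) and 3100002H09Rik (0.964), and Ptprz1, a receptor phosphatase of glia, had means of 737 CPM in PSCs, 9.90 CPM with GFP alone and 4.87 CPM with dsRed alone. Nrxn3 went with Car12 (r = 0.939), Csmd3 (0.937) and Nkx2-2os (0.931), Nlgn1 with Itgb8 (0.947), Ivns1abp (0.945) and Kcnk10 (0.943), and Ptprd with Chadl (0.968), Syt11 (0.965) and Atp6v0e2 (0.959). For Ptprf these were Aatk (0.938), Gpt2 (0.932) and Txndc16 (0.931), and for Ptprs Adam12 (0.919), Cdk5rap2 (0.917) and Adgrl3 (0.911). Nlgn2 went with Zfp740 (0.906), Tmed4 (0.889) and Ryk (0.886), whose means all differed by less than 2-fold between cell types. Between members, r ranged from 0.725 to 0.874 without Nlgn2 and from 0.124 to 0.582 with it.

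Partners of the members were then read from 5 lists of 85 genes, of which 62 passed the filter. Of these 62, 27 were higher and 14 lower in PSCs when set against S100β-GFP+ cells, where 22.9% and 24.1% of all genes were. Against NG2-dsRed+ cells 21 were higher and 22 lower, beside 20.9% and 23.1% of all genes. PSCs were above both cell types for 18 genes, where 13.9% of all genes were. They were below both for 11, and above S100β-GFP+ but below NG2-dsRed+ cells for 2, Lin7a and Ppfia2, named here after their values were seen. For these last 2 counts no share over all genes was computed. The median log2 fold change over the lists was 0.33 and 0.01, beside 0.04 and 0.02 over all genes. The shares of all genes given here for each comparison also stand beside the counts of the single lists below.

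Surface partners of the LAR-type phosphatases included the largest differences. Of 12 tested, 7 were higher and 1 lower than in S100β-GFP+ cells (median log2 fold change 2.34), and 8 were higher and 2 lower than in NG2-dsRed+ cells (2.63). Slitrk3, a ligand of PTPδ at inhibitory synapses, had 128 ± 53.4 CPM in PSCs and 0.609 ± 0.752 and 0.562 ± 0.494 CPM in the GFP-only and dsRed-only cells (log2 fold changes 7.68 ± 0.51 and 7.82 ± 0.46, edgeR adjusted p = 4.60e-13 and 3.04e-14). Slitrk1 had 65.7 ± 30.1 CPM in PSCs and under 1 CPM on average in both others (6.44 and 6.52). Lrrc4b, the postsynaptic adhesion protein NGL-3, rose by 4.86 and 5.99, and Il1rap, a receptor subunit whose brain form binds PTPδ, by 3.05 and 3.32, with 191 ± 49.5 CPM in PSCs. The proteoglycan Sdc2 fell by 1.81 and 1.66, and Sdc3 rose by 1.24 against NG2-dsRed+ cells (edgeR adjusted p = 0.000382) and had a difference of 0.65 from S100β-GFP+ cells (edgeR adjusted p = 0.0610).

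Neurexin partners split in direction. Of 13 tested, 7 were higher and 2 lower than in S100β-GFP+ cells (median 1.00), and 6 higher and 5 lower than in NG2-dsRed+ cells (median 0.05). Dag1, whose product dystroglycan links laminin to the cell, had 2966 ± 495 CPM in PSCs against 280.3 ± 75.0 and 364 ± 40.1 CPM (3.40 ± 0.17 and 3.03 ± 0.16). C1ql1, a secreted C1q-like ligand, had 31.1 ± 9.54 CPM against 0.216 and 0.189 CPM (7.10 and 7.20), and the latrophilin Adgrl3 had 151 ± 52.5 CPM against 8.35 and 3.70 CPM (4.18 and 5.34). Tafa1, which codes for a small secreted protein that joins neurexins as they mature, rose by 3.45 and 5.54 from a lower level of 6.93 ± 5.64 CPM. Adgrl2 was higher than in S100β-GFP+ cells by 1.00 and had a difference of -0.54 from NG2-dsRed+ cells (edgeR adjusted p = 0.131), and Clstn1 was lower than in NG2-dsRed+ cells by -0.65 and had a difference of 0.09 from S100β-GFP+ cells (edgeR adjusted p = 0.698). A further 14 partners of the 27 listed, among them Cbln1, Nxph1 and Lrrtm4, did not pass the filter, which works on single libraries. Each had 399 counts or fewer over all libraries, a range in which some tested partners also lay.

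Of the 4 modulators of neuroligins, the MAM-domain inhibitors differed in direction. Mdga2 rose in PSCs by 3.73 and 4.05, to 18.5 ± 4.51 CPM. Mdga1 was lower than in S100β-GFP+ cells by -3.21 and had a difference of -1.21 from NG2-dsRed+ cells (edgeR adjusted p = 0.0718), at 0.673 ± 0.824 CPM. Adam10, a protease that sheds neuroligins, fell by 0.56 and 0.55. Sparcl1, which codes for the matrix protein hevin that bridges neurexins and neuroligins, fell by 2.05 against NG2-dsRed+ cells and had a difference of 0.28 from S100β-GFP+ cells (edgeR adjusted p = 0.529).

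Cytoplasmic scaffolds showed no common direction. On the side that binds neurexins and LAR-type phosphatases, 7 of 17 were higher and 7 lower than in S100β-GFP+ cells, and 2 higher and 9 lower than in NG2-dsRed+ cells. Apba2 rose by 4.39 and 6.87, while its paralog Apba1 fell by 3.22 and 1.84 and the liprin Ppfia4 fell by 3.31 and 1.62. Among the most abundant, Epb41l2 fell by 1.31 and 1.52 and Ppfibp1 by 0.58 and 0.78, and Cask was higher by 0.37 than in S100β-GFP+ cells with a difference of 0.05 from NG2-dsRed+ cells. On the side that binds neuroligins, 5 of 16 were higher and 2 lower, and then 4 higher and 4 lower. Dlgap1, which links DLG proteins to SHANK scaffolds, had 59.5 ± 10.8 CPM in PSCs against 4.62 ± 2.32 and 1.30 ± 0.625 CPM (3.69 ± 0.27 and 5.50 ± 0.28). Snx27 rose by 0.53 and 0.85 and Dlg3 rose by 1.71 against S100β-GFP+ cells, with a difference of 0.24 from NG2-dsRed+ cells (edgeR adjusted p = 0.524). Dlgap4 was lower than in S100β-GFP+ cells by -0.54, and Dlg1 lower than in NG2-dsRed+ cells by -0.56.

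**Figure D5:**
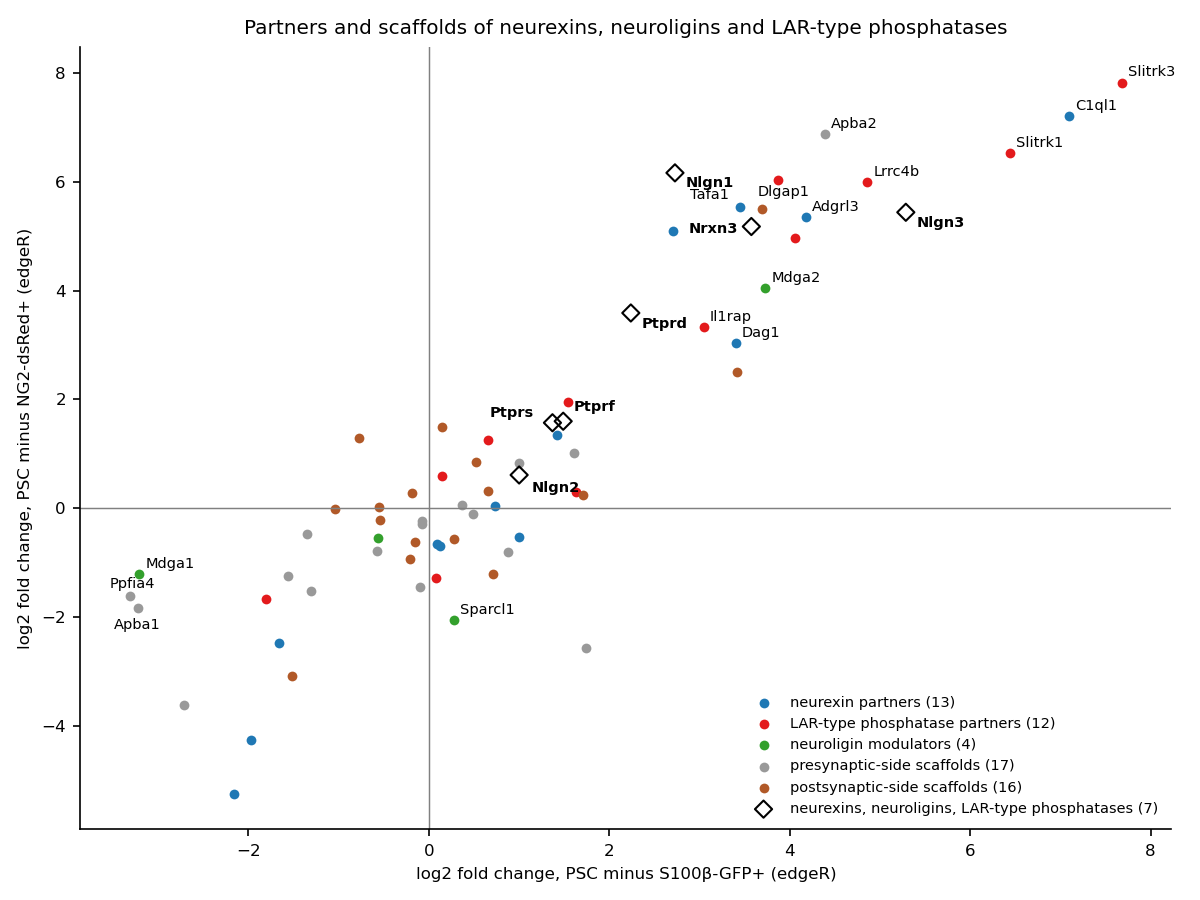
Log2 fold change of PSCs against S100β-GFP+ cells (x axis) and against NG2-dsRed+ cells (y axis), both from edgeR, for 62 partner and scaffold genes coloured by list and 7 members as open diamonds. The axes share the PSC libraries. Slitrk3, C1ql1 and Slitrk1 lie at the upper right, above all members, and Ppfia4, Apba1 and Mdga1 at the far left.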

How the data were processed

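RNA was made from FACS-sorted muscle cells and libraries with a SMART-Seq v4 low-input kit. Per the labels and the study's methods the authors aligned trimmed reads to GRCm38 (HISAT2) and summed them over genes (HTSeq) (versions and strand setting not given in the sources used here), and the deposited values are raw counts. Of 36 labelled libraries, 27 had a column. The labels number libraries from 1 to 36, and the groups came from the cell type label.

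Gene names, positions and exon lengths came from GENCODE M21 (99.7% of IDs matched). In R 4.3.3, edgeR 4.0.16 fitted all 27 libraries together with TMM scaling, after filterByExpr with a minimum count of 10, and tested 15330 genes by quasi-likelihood, with p-values adjusted after Benjamini and Hochberg and a threshold of 0.05. In Python 3.11.15, scipy 1.17.1 gave exact permutation tests of family shares. Alternatives were DESeq2 1.42.0, its size factors, no filter, 2 groups per fit, limma-voom 3.58.1 with library weights, a term for the share taken by Lars2, Gm23935 and Gm15564, and left-out libraries. On simulated counts for 15083 genes, edgeR recovered 93.9% of 98 genes changed 4-fold and 37.8% of 98 changed 2-fold for PSCs against S100β-GFP+ cells, and 91.8% and 45.9% for PSCs against NG2-dsRed+ cells. Only 200 genes were changed in the simulation, where 47.0% and 44.0% of all genes tested were called in the data. These rates may therefore not carry over to the data.

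The members and lists were chosen with earlier results of these data known. The text names all members, the 3 genes most like each, and in each list the 3 highest in mean log2 CPM (prior count 2) and the 3 called genes with the largest change between PSCs and S100β-GFP+ cells. Cbln1, Nxph1 and Lrrtm4 were named outside this rule, after their counts were seen. Libraries of one cell type differed from each other by more than counting error (chi-square divided by its degrees of freedom at least 8.10). Counting intervals do not cover amplification error, since the kit used no molecular identifiers. Shares within the neurexins were planned and not computed, because Nrxn2 is listed at 0, and some other items are not reported here.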

Additional observations from a re-analysis of the deposited data

Results flagged for a closer look

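A value was singled out when its gap to the nearest library of the same cell type was large for the range of the group (Dixon's criterion at 95%). Of 39 groups of levels and shares examined, 6 had such a library. The criterion flags about 1 in 20 groups by chance where values are normal and groups independent. Levels near the floor, and shares that reuse the same counts, do not meet these conditions, so the 6 cannot be set against that rate.

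Of the 6 flagged values, 3 were PSC library 18. Its Nlgn2 level was 91.6 CPM where the other PSC libraries had 17.4 to 53.7 CPM, its share of Nlgn2 among neuroligins was 92.9% where the others had 24.7% to 55.7%, and its share of Nlgn3 was 6.54% where the others had 40.6% to 69.7%. These values come from the same counts and are not independent of each other. Its Nlgn2 share lay within the S100β-GFP+ range, while its Sox10 level, 703 CPM, was the highest of the PSC libraries. Whether cells of another type contributed was not tested.

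The remaining 3 were single values in low ranges. Nrxn3 was at 2.59 CPM in NG2-dsRed+ library 35, where the others had at most 0.849 CPM. The share of Nlgn1 was 0.862% in NG2-dsRed+ library 2, where the others had at most 0.386%. The share of Ptprd among LAR-type phosphatases was 19.5% in S100β-GFP+ library 14, where the others had 8.31% to 13.0%.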

How the results depend on the processing

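No paired analysis was possible, because library numbers are unique and the cell types share none. The labels do not name the mouse, so libraries of different cell types may come from the same mouse. The tests between cell types treat all libraries as independent. No call of a member, of a named partner or scaffold gene, or of a family share changed direction in these alternatives. By median per Sox10 count, the order of PSCs and S100β-GFP+ cells was the opposite for 6 members. That scale is not an alternative processing: it was chosen after the data were seen, and its divisor Sox10 was itself far higher in PSCs. Of the differences that were not called, 10 took the opposite sign in 38 values, none past the threshold. In limma-voom these were -0.011 for Clstn1 (PSCs against S100β-GFP+ cells) and, between S100β-GFP+ and NG2-dsRed+ cells, -0.0088 for Ptprf, -0.22 for C1ql1, -0.51 for Slitrk3, -0.39 for Slitrk1, -0.053 for Adam10 and -0.74 for Mdga2. Without libraries 14, 17 and 22 they were -1.45 for C1ql1, -1.51 for Slitrk3, -0.89 for Slitrk1 and -0.78 for Mdga2, 2.02 points for the Ptprf share (PSCs against S100β-GFP+ cells) and 2.40 points for the Ptprs share (S100β-GFP+ against NG2-dsRed+ cells). Slitrk1 was at -0.069 with the share term and Adam10 at -0.028 without the filter. Single omissions gave -0.074 to 0.30 for Nlgn3, -0.067 to 0.16 for Clstn1, -0.90 to 0.43 for C1ql1, -0.41 to 0.49 for Slitrk3, -0.74 to 0.31 for Slitrk1, -0.056 to 0.063 for Adam10, -0.63 to 0.52 for Mdga2, and -3.84 to 0.798 and -4.29 to 0.126 points for the 2 shares; the causes were not tested. Fits of only the 2 groups compared gave 1 member called of 4 tested between S100β-GFP+ and NG2-dsRed+ cells, against 3 of 7, since Nrxn3, Nlgn1 and Nlgn3 then failed the filter. Leaving out each library in turn left 7 to 7 members called against S100β-GFP+ cells, 6 to 7 against NG2-dsRed+ cells and 2 to 3 between the others, 38 to 44, 40 to 48 and 30 to 35 partner and scaffold genes, and 10 to 11 shares. Nrxn3 between S100β-GFP+ and NG2-dsRed+ cells lost its call in limma-voom (0.99, adjusted p = 0.269), without S100β-GFP+ libraries 14, 17 and 22, and in 10 single omissions, with log2 values from 1.22 to 1.61. Of those, the omissions of S100β-GFP+ libraries 17, 22 and 27 gave adjusted p = 0.105, 0.133 and 0.0885. Nlgn2 against NG2-dsRed+ cells became called without PSC library 4, 12, 20, 34 or 36 or S100β-GFP+ library 11 (0.65 to 0.75, adjusted p = 0.0238 to 0.0490), and Nlgn2 between the others in limma-voom (-0.62, adjusted p = 0.0261) and with the share term (-0.54, adjusted p = 0.0329); the cause was not tested. The Ptprs share of PSCs against NG2-dsRed+ cells became called without NG2-dsRed+ library 15 (-9.82 points, adjusted p = 0.0374). Over all genes, calls without the filter were 16556 against 7198 for PSCs and S100β-GFP+ cells, with 23.6% of them higher in PSCs against 48.8%, and 10586 against 5099 for S100β-GFP+ and NG2-dsRed+ cells, with 77.4% higher in S100β-GFP+ cells against 54.3% (64.8% in DESeq2). The median log2 fold change of all genes was then -0.97 and 0.78, and -0.29 and 0.27 in DESeq2. It was 0.16 for PSCs against S100β-GFP+ cells without libraries 14, 17 and 22. Depth limits the calls on Nlgn1 in NG2-dsRed+ cells, with 7 counts in all.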
